A study of Mus musculus with 31 samples.

Results

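The neighbouring genes Cdkn2a and Cdkn2b were followed in the 80-kb window of chromosome 4 from 88900000 to 88980000 (mm9), in which every peak of H3K27me3 or H3K9me3 was collected from 18 peak lists. The window held 40 of the 265293 peaks in all lists, 38 of H3K27me3 and 2 of H3K9me3. The window was chosen by its H3K27me3 length in these same E13.5 and E10.5 lists, so that difference is described below without a test. Tests are given only for H3K9me3 and for the sexes. The test of the sexes uses those same H3K27me3 lengths, so no support is drawn from it.

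Cdkn2a encodes 2 unrelated proteins from separate first exons. p16Ink4a blocks the cyclin D kinases Cdk4 and Cdk6 and so keeps the retinoblastoma protein active, and p19Arf holds back Mdm2 and so stabilises p53. Cdkn2b encodes p15Ink4b, a relative of p16Ink4a with the same kinase targets, and is a known responder to TGF-beta. In proliferating cells the locus is a classic target of Polycomb, whose complex PRC2 lays down H3K27me3 and whose subunit Bmi1 was tied to repression of Ink4a and Arf in mice. H3K9me3 is a mark of heterochromatin and repeats.

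The chromatin came from primordial germ cells, which later form eggs or sperm, sorted by fluorescence from wild-type mouse embryos of the cross C57BL/6 x GOF18delta_PE-EGFP. That reporter places EGFP under Oct4 regulatory sequence without its proximal enhancer, which marks germ cells. All groups shared this background and genotype: E13.5 female, E13.5 male and E10.5 cells, with 3 lists per mark in each. At E10.5 several embryos were combined and no sex is given, and the germ-cell label could not be checked by markers, since peak lists hold no expression. Each ChIP used 1000 cells. Nothing in the labels ties replicates to separate animals, and p-values below reflect spread among lists that may be technical.

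Read depth is unknown, so the total length of each list is given in its place. H3K27me3 lists covered 0.159 to 5.22 Mb at E13.5 and 2.08 to 35.5 Mb at E10.5. The list of E13.5 male replicate 2 stands apart with 359 peaks, against 2629 to 7839 in the other E13.5 lists, and its 0 values below carry little. For E10.5 replicate 3 the peak names give an H3K9me3 input as the control of the H3K27me3 list. The sample labels give an E10.5 replicate 3 input with no mark named, and whether the peak names mean that input is not known.

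Both genes are read from the minus strand and sit side by side in RefSeq (GRCm38.p6), with Mtap and Dmrta1 as the nearest protein-coding genes on the low and high side. Cdkn2a therefore lies nearer the low end of the window and Cdkn2b nearer its high end. Positions of transcription starts in mm9 were not used here, so no peak is assigned to a promoter. The 250 bases before each RefSeq start are printed because CpG-rich starts are the usual sites of Polycomb in mammals. They are given 5′ to 3′ on the gene's strand, with each CpG in capitals.
Cdkn2a, upstream start (p19Arf), GRCm38.p6 chr4:89294620-89294869, minus strand: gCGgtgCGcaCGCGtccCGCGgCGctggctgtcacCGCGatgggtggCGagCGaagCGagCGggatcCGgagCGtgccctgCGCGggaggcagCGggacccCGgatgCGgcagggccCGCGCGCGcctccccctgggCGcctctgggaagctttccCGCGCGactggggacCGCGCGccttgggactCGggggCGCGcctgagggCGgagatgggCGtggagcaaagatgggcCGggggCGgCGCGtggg
Cdkn2a, downstream start (p16Ink4a), GRCm38.p6 chr4:89282193-89282442, minus strand: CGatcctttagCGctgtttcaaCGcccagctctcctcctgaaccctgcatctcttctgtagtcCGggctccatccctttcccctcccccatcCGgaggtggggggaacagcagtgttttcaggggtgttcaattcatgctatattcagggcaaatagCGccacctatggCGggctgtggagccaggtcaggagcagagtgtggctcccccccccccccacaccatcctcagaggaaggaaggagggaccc
Cdkn2b (p15Ink4b), GRCm38.p6 chr4:89311033-89311282, minus strand: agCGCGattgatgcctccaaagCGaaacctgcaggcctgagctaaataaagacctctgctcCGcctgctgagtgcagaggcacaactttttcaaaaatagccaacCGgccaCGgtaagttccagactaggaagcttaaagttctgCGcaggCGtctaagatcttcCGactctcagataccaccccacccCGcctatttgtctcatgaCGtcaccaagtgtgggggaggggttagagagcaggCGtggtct

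The 3 starts differ widely in CpG content. The p19Arf start held 40 CpG in 250 bases and 78.4% G or C, and 1.31% of 32841 promoters in the same table hold as many CpG. At the p15Ink4b start there were 12 CpG and 53.6% G or C, a count that 33.5% of promoters reach. The p16Ink4a start held 7 CpG and 60% G or C, close to the median of 6 CpG over all promoters, and 46.3% of promoters hold as many. CG reads the same on both strands, and the counts describe these letters only.

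H3K27me3 peaks covered much less of the window at E13.5 than at E10.5. Female replicates 1 to 3 of E13.5 held 2.15, 3.0 and 4.00 kb in peaks, E13.5 male replicates held 2.01, 0 and 1.55 kb, and E10.5 replicates held 25.9, 12.1 and 37.4 kb. Every E10.5 list lay above every E13.5 list, from replicate 2 at E10.5 to female replicate 3 at E13.5 as the nearest pair. Means were 3.05 ± 0.926 kb in E13.5 female, 1.19 ± 1.05 kb in E13.5 male and 25.1 ± 12.7 kb in E10.5 lists (SD, n = 3 each), and the 6 E13.5 lists differed from the E10.5 lists by -23.02 kb on average. Over the genome, 3.36% of 8755 tiles of 80 kb with an H3K27me3 peak had every E10.5 list above every E13.5 list, and 0.0685% had the reverse. As the window was picked for this contrast, nothing is read from that share.

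**Figure D1:**
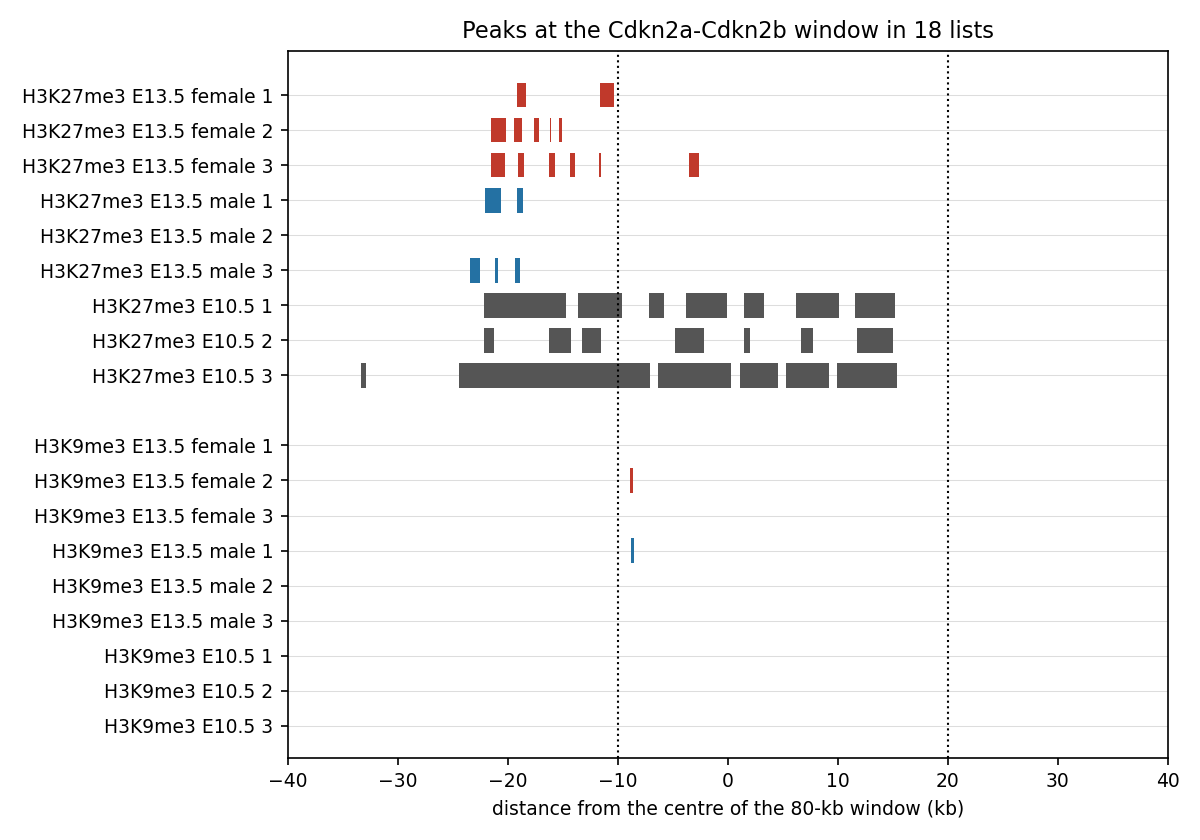
Peaks at the Cdkn2a-Cdkn2b window in 18 lists, by distance from the window centre in kb, with 1 line per list (red E13.5 female, blue E13.5 male, grey E10.5) and dotted lines 30 and 60 kb from the low end. E13.5 peaks sit in the first 30 kb except 1 peak of female replicate 3, E10.5 peaks run on through the next 30 kb, and H3K9me3 has 2 short peaks.

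The number of peaks separated the stages less than their length did. There were 2, 5 and 6 H3K27me3 peaks in E13.5 female, 2, 0 and 3 in E13.5 male and 7, 7 and 6 in E10.5 replicates 1 to 3. Female replicate 3 and E10.5 replicate 3 thus held 6 peaks each, with 4.00 and 37.4 kb. Peaks were narrow at E13.5, where the 18 peaks measured 149 to 1414 bp (median 585 bp), and wide at E10.5, where the 20 peaks measured 415 to 17401 bp (median 3398 bp).

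E10.5 replicate 3 held the widest peak of the window, 17401 bp from 88915556 to 88932956, which ranks 92nd by width among the 23141 peaks of its list. The widest in E10.5 replicate 1 had 7393 bp and the widest in E10.5 replicate 2 had 3261 bp. In E13.5 lists the widest were 1324, 1374 and 1270 bp in female replicates 1 to 3, and 1414 and 845 bp in male replicates 1 and 3. Peaks of the window were mostly wider than their list at E10.5, with medians of 3763, 1663 and 4702 bp against list medians of 923.5, 827 and 728 bp. At E13.5 the window medians of 1077, 486 and 550 bp in female lists stood against 431, 510 and 469 bp, and those of 1003.5 and 451 bp in male replicates 1 and 3 against 493.5 and 553 bp.

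**Figure D2:**
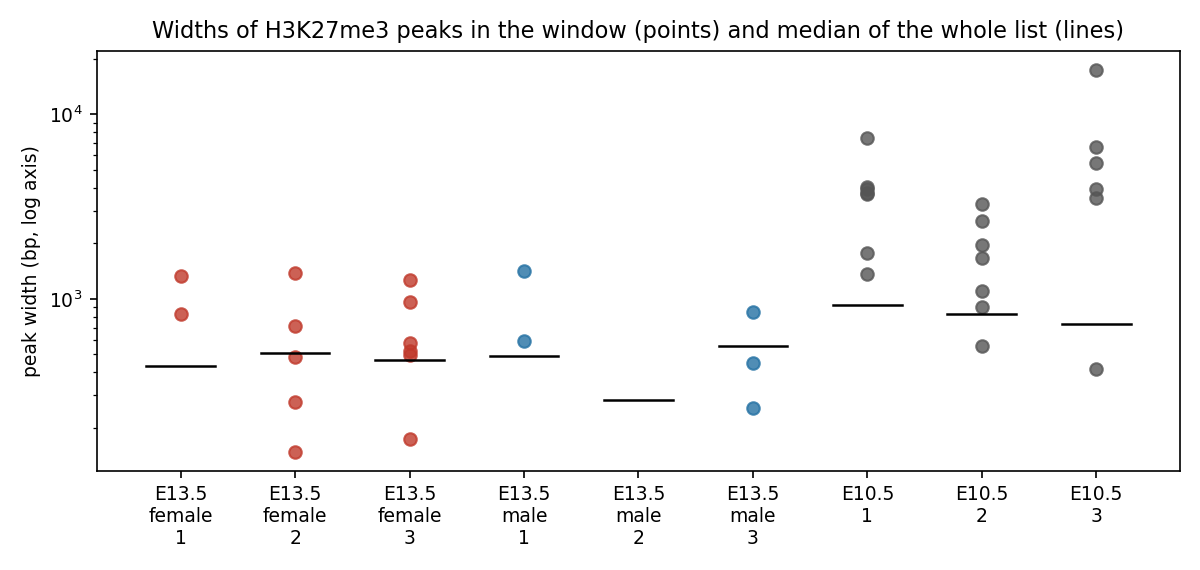
Width of each H3K27me3 peak in the window (points, bp, log axis) and median width of all peaks of that list (black lines), for 3 E13.5 female, 3 E13.5 male and 3 E10.5 lists. The points reach 1414 bp at E13.5, where male replicate 2 has none, and 17401 bp at E10.5.

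The E13.5 peaks were not spread over the window. All but 1 lay between 88916600 and 88929697, and none lay in the first 10 kb. Which gene each part of the window holds was not determined. In the first 30 kb, E13.5 female replicates 1 to 3 held 2.15, 3.0 and 3.04 kb, male replicates held 2.01, 0 and 1.55 kb, and E10.5 replicates held 11.0, 4.53 and 14.9 kb. In the next 30 kb, female replicates held 0, 0 and 0.959 kb, male replicates held 0 kb in all 3 lists, and E10.5 replicates held 14.9, 7.58 and 22.5 kb. Of the E13.5 peaks 17 of 18 began in the first part, against 7 of 20 at E10.5. The first part held 76.0 to 100% of the window's H3K27me3 in the 5 E13.5 lists with any, and 37.4 to 42.5% in the 3 E10.5 lists. No list had H3K27me3 in the last 20 kb. In both parts every E10.5 list lay above every E13.5 list, as in 2.94% of 12328 tiles of 30 kb. The limits of the next 30 kb match the 10-kb bins, given below, that separate the stages. The contrast between the parts is thus not independent of that separation.

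**Figure D3:**
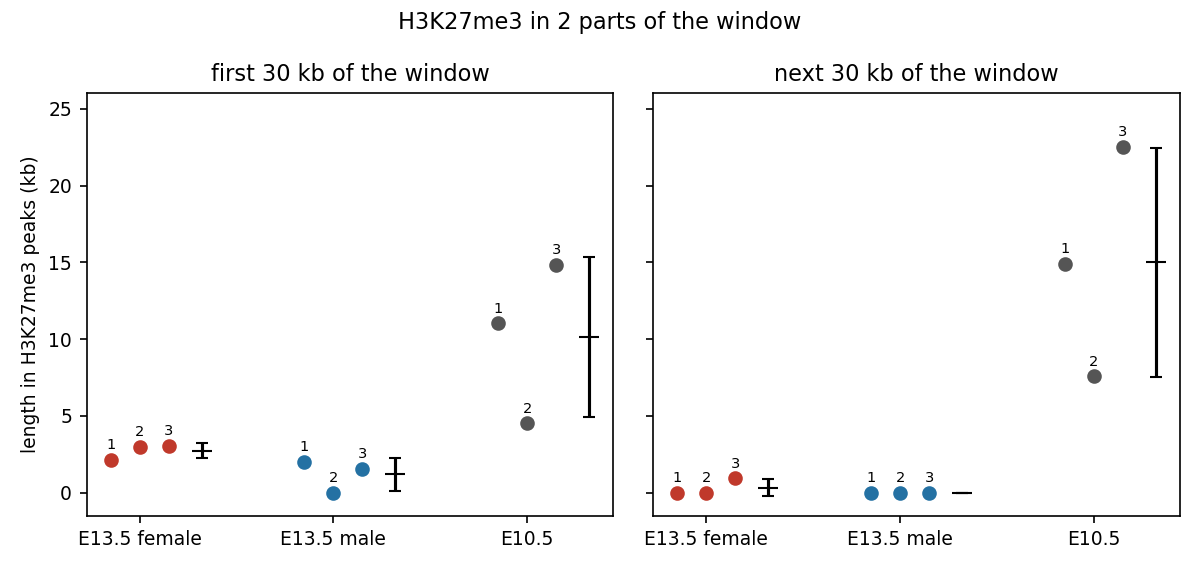
Length in H3K27me3 peaks (kb) in the first and the next 30 kb of the window, with 1 numbered point per replicate and the mean ± SD of 3 lists beside each group. In the first part 5 of 6 E13.5 lists hold 1.55 to 3.04 kb, and in the next part 1 of 6 holds any, at 0.959 kb.

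By 10-kb bins, in which a list holds a bin with at least 1 kb in peaks, the second bin was held by 4 of 6 E13.5 and 2 of 3 E10.5 lists, and the third by 3 of 6 E13.5 and all 3 E10.5 lists. The next 3 bins were held by all 3 E10.5 and none of the E13.5 lists, as were 0.69% of 18849 bins with an H3K27me3 peak, while 0.0159% showed the reverse. The number of bins past either limit over the genome, 133, was 2755 without the short list of E10.5 replicate 2. Just inside and outside that limit lay 1.66 kb, the lowest E10.5 value in these 3 bins, and 0.959 kb, the highest E13.5 value in them.

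All 3 E10.5 lists agreed on 7 stretches that add up to 10.6 kb, of which 3 lay in the first 30 kb (4.01 kb) and 4 in the next (6.60 kb). The longest shared stretch had 3261 bp, from 88951775 to 88955035, in the second part, and no E13.5 list had a peak in it. Shared stretches of 535 bp from 88941485 and of 1106 bp from 88946661 were likewise free of E13.5 peaks. The fourth stretch, 1700 bp from 88936171, met the single E13.5 peak of the second part, 959 bp in female replicate 3. E13.5 peaks overlaid 43.5% of the shared E10.5 length in the first part and 14.5% in the next, and 74.5% of it over the window lay in no E13.5 list.

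E13.5 lists agreed most on 221 bp from 88920929 to 88921149, which lay in peaks of all 3 female lists and of male replicates 1 and 3. E10.5 replicates 1 and 3 covered this stretch too, whereas E10.5 replicate 2 had a gap there between peaks that end at 88918732 and start at 88923779. A second stretch of 257 bp from 88918882 to 88919138 was in peaks of 4 E13.5 lists and 2 E10.5 lists. Together the E13.5 peaks spanned 8.04 kb, of which 100% lay in peaks of at least 1 E10.5 list and 33.6% in peaks of all 3. Among the E10.5 lists, 100% of the replicate 2 length lay in replicate 3 peaks and 87.7% in replicate 1 peaks, and 32.4% of replicate 3 and 40.9% of replicate 1 lay in replicate 2.

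List length moves with stage in these data, and on a scale relative to the list the window gave a weaker contrast. Its share of each list's own H3K27me3 length was 1382, 575 and 970 ppm in E13.5 female, 811, 0 and 389 ppm in E13.5 male and 1306, 5808 and 1052 ppm in E10.5 replicates 1 to 3. Female replicate 1 lay above E10.5 replicates 1 and 3, so the stages overlapped on this scale, and without E10.5 replicate 2 the difference of -2034 ppm shrank to -491 ppm. Tiles whose E10.5 lists all lay above the E13.5 lists in ppm made up 1.86% of 8755, and the reverse 0.331%.

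On the ppm scale the stages overlapped in the first part of the window and not in the next. In the first 30 kb E13.5 female lists had 1382, 575 and 737 ppm, male lists had 811, 0 and 389 ppm, and E10.5 lists had 556, 2173 and 418 ppm. In the next 30 kb female lists had 0, 0 and 232 ppm, male lists had 0 ppm, and E10.5 lists had 750, 3635 and 634 ppm. E10.5 lists all lay above E13.5 lists there, as in 1.53% of 12328 tiles. As the limits of this part match the bins that separate the stages in kb, nothing is read from that share. The part of list length in the difference was not tested.

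E10.5 replicate 2 has a list about as long in Mb as some E13.5 lists, though with fewer peaks. Its 1703 peaks covered 2.08 Mb and held 12.1 kb in the window, while E13.5 lists of 3522 to 7839 peaks and 2.47 to 5.22 Mb (female replicates 2 and 3, male replicates 1 and 3) held 1.55 to 4.00 kb. With the 359 top-scoring peaks of every list, as many as the shortest list holds, the stages overlapped: E13.5 lists averaged 0.359 kb (highest 1.45 kb) and E10.5 lists 2.21 kb (lowest 0 kb), a difference of -1.85 kb. When each list but that of male replicate 2 was reduced to its 1703 top-scoring peaks, a number chosen after seeing the data, the window held 2.15, 0.427 and 1.45 kb in E13.5 female replicates 1 to 3 and 0.593 and 0.708 kb in male replicates 1 and 3. E10.5 replicates then held 16.8, 12.1 and 29.5 kb. The next 30 kb had 0 kb in these 5 E13.5 lists and 9.40, 7.58 and 15.04 kb in E10.5 lists. Those 1703 peaks still covered 1.04 to 1.41 Mb in E13.5 lists and 2.08 to 8.45 Mb in E10.5 lists, since E10.5 peaks are wider.

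**Figure D4:**
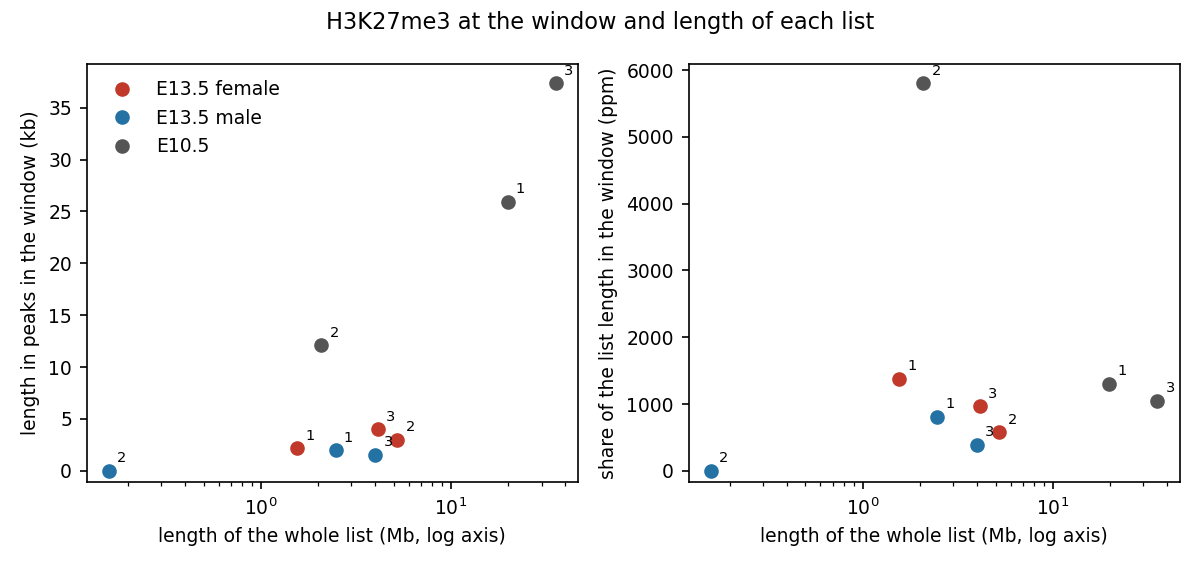
Length in H3K27me3 peaks in the window (kb, left) and the window's share of the list's own length (ppm, right) against the length of the whole list (Mb, log axis), with 1 numbered point per replicate. At left the 3 E10.5 lists, at 12.1 to 37.4 kb, lie above all E13.5 lists, and at right E13.5 female replicate 1, at 1382 ppm, lies above E10.5 replicates 1 and 3.

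The window held more H3K27me3 than most other marked places in each list with a peak there. It was chosen by its H3K27me3 length in these lists, so ranks and lengths against an even spread are description only. Ranked by H3K27me3 length among 80-kb tiles with a peak, it was 184th of 1411, 457th of 2955 and 236th of 3040 in E13.5 female replicates 1 to 3, and 328th of 1908 and 680th of 2470 in male replicates 1 and 3. At E10.5 it was 97th of 4645, 19th of 1022 and 103rd of 6719. Length in the window was 12.9 to 45.6 times an even spread over the genome in the 5 E13.5 lists with a peak, and 43.1, 192 and 34.7 times in E10.5 replicates 1 to 3. By the authors' peak score, whose scale is not known, 10 of 18 E13.5 peaks and 15 of 20 E10.5 peaks reached the median of their list.

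Between the sexes at E13.5, H3K27me3 averaged 1.19 ± 1.05 kb in male and 3.05 ± 0.926 kb in female lists (SD, n = 3 each), a difference of -1.87 kb. Every male list lay below every female list (highest male 2.01 kb, lowest female 2.15 kb), as in 3.74% of 5404 tiles. The exact two-sided permutation p was 0.1, the smallest that 3 against 3 lists allow, and this comparison was added after seeing the data. It also rests on the H3K27me3 lengths by which the window was chosen, so nothing is concluded from this p. Without the short list of male replicate 2 the difference was -1.27 kb (exact permutation p = 0.2). Among peaks that score at least 20 it was -0.467 kb (exact permutation p = 0.4), and with the 359 top-scoring peaks -0.246 kb (exact permutation p = 1). In ppm the sexes overlapped (811, 0 and 389 ppm in male, 1382, 575 and 970 ppm in female lists).

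H3K9me3 was nearly absent from the window. E13.5 female replicate 2 held a peak of 277 bp from 88931112 to 88931388, E13.5 male replicate 1 held a peak of 263 bp from 88931220 to 88931482, and the other 7 lists, with all 3 of E10.5, held none. These 2 peaks overlap each other, and of the 9 H3K27me3 lists only E10.5 replicate 3 had H3K27me3 there. Of 33028 tiles of 80 kb, 762 (E10.5 replicate 3) to 16389 (male replicate 1) held an H3K9me3 peak. In each list most tiles thus held none. An even spread would have placed 2.39, 1.42 and 0.779 kb of H3K9me3 in the window in male replicates 1 to 3, where 0.263, 0 and 0 kb were found. In E10.5 replicates 1 to 3 it would have placed 0.060, 1.41 and 0.013 kb, so 0 kb in replicates 1 and 3 carries little. E13.5 lists averaged 0.090 ± 0.139 kb (SD, n = 6) and E10.5 lists 0 kb (n = 3), with an exact two-sided permutation p of 0.5 (0.625 adjusted over 5 H3K9me3 tests). With 0 kb in 7 lists no split of these values gives a p below 0.05, so this test decides nothing.

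In the 1 Mb centred on the window H3K9me3 lay almost wholly outside the window itself. E13.5 female replicates 1 to 3 held 1.96, 3.23 and 1.18 kb, male replicates held 29.2, 22.3 and 15.04 kb, and E10.5 replicates held 0.303, 14.7 and 0 kb. Every male list lay above every female and every E10.5 list, the nearest being E10.5 replicate 2. The share of other 1-Mb regions with this order was not counted, so the order is not read as particular to this region. Male lists differed from E10.5 lists by 17.2 kb and from female lists by 20.04 kb, each with an exact permutation p of 0.1, the smallest possible (0.25 adjusted over 5 tests). Other choices of peaks changed these differences to unlike degrees. With peaks at or above the median score of their list, male minus E10.5 was 11.9 kb (exact permutation p = 0.2). Male minus female was then 14.7 kb (exact permutation p = 0.1). Median scores were 15.4 to 16.4 in male and 19.3 to 26.5 in E10.5 lists, so a cutoff at 20 keeps unlike parts of them. Among peaks that score at least 20, male minus E10.5 was -2.45 kb (exact permutation p = 1) and male minus female 0.77 kb (exact permutation p = 0.6), and with the 1107 top-scoring peaks of each list they were 0.527 kb (exact permutation p = 0.1) and 0.409 kb (exact permutation p = 0.2). Female lists differed from E10.5 lists by -2.87 kb (exact permutation p = 1), and all 6 E13.5 lists differed from E10.5 by 7.16 kb (exact permutation p = 0.357, 0.595 adjusted).

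List length again moves with these values. Whole H3K9me3 lists covered 4.28 to 12.2 Mb in female, 25.7 to 78.9 Mb in male and 0.441 to 46.6 Mb in E10.5 cells. The 1-Mb region took 264 to 325 ppm of the list in female, 370 to 585 ppm in male and 0 to 315 ppm in E10.5 cells, where an even spread gives 379 ppm. The part of list length in the male difference was not tested. The longer of 2 H3K9me3 stretches within 80 kb of the window, 88825583 to 88840036, had peaks in all 6 E13.5 lists (0.344 to 8.42 kb) and in 1 of 3 E10.5 lists (8.74 kb).

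H3K27me3 was also found outside the window in the same region. A stretch from 88436692 to 88453027, 447 kb below the window, held 5.79, 5.58 and 7.39 kb in E13.5 female replicates 1 to 3, 7.00, 1.42 and 9.44 kb in male replicates and 13.4, 0 and 13.2 kb in E10.5 replicates. E10.5 replicates 1 and 3 lay above every E13.5 list there, and the stages overlapped only through E10.5 replicate 2. That list held 12.1 kb in the Cdkn2a-Cdkn2b window and none in this stretch, where even the 359-peak male list had a peak. A gap in a short list may be a limit of calling. The 80 kb on each side of the window held at most 0.289 kb at E13.5 and at most 0.306 kb at E10.5.

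**Figure D5:**
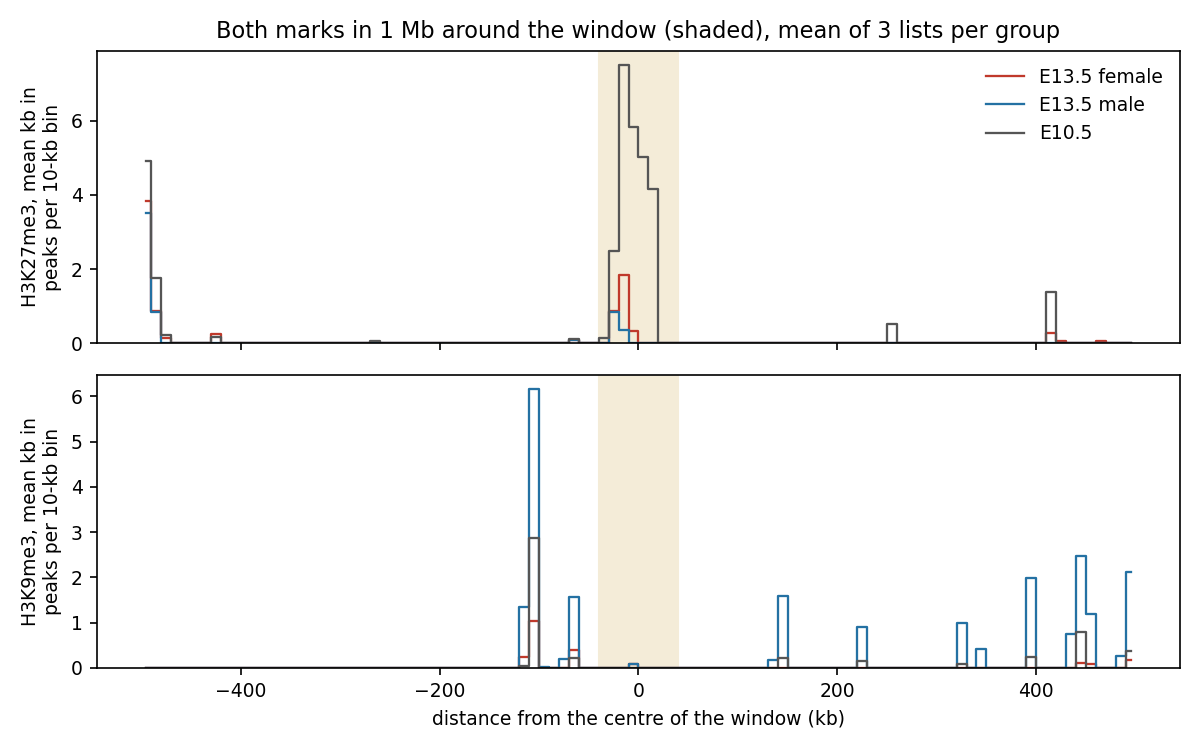
Mean length in peaks per 10-kb bin (kb, 3 lists per group) of H3K27me3 (top) and H3K9me3 (bottom) in 1 Mb around the window (shaded), by distance from its centre in kb. H3K27me3 stands over the window and near the low edge of the region, and H3K9me3 lies outside the window, highest in E13.5 male lists.

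The second 30 kb of the window was the longest of 124 merged regions held by all E10.5 and no E13.5 lists. As the window was picked for this contrast, nothing is read from its place among these regions. The 4 next longest had 20 kb each and began at 85130001 on chromosome 6, 84330001 on chromosome 11, 146040001 on chromosome 2 and 91260001 on chromosome 16. Within 30 kb on either side, 5 of 6 E13.5 lists had H3K27me3 peaks at the Cdkn2a-Cdkn2b region, against 0, 0, 1 and 4 of 6 at these 4 in the same order. Some 10-kb regions among the 124 had 5 or 6 such lists, so peaks of E13.5 nearby were not particular to the locus.

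Of 1070 other 80-kb tiles with at least 5 kb of H3K27me3 on average at E10.5, those most like the window over the 9 H3K27me3 lists had Pearson's r of 0.991 to 0.997. They began at 72400001 on chromosome 8, 86640001 and 52640001 on chromosome 7, 130400001 on chromosome 2 and 28480001 on chromosome 5. The tile from 86640001 on chromosome 7 held 0 to 3.56 kb at E13.5 and 17.8 to 61.0 kb at E10.5. All tiles share the lists and their lengths, so these likenesses are a description.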

How the data were processed

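Per the labels' protocols, chromatin of 1000 sorted cells was cut with micrococcal nuclease and sequenced as 100-bp paired ends. The submitters' processing notes list MACS2 2.1.0, BWA 0.7.5a, deepTools 3.3.0, SAMtools, Picard, CASAVA 1.8.4 and mm9, with no role or order, and no source used here gives a peak threshold. Each deposited list holds the authors' broad peaks of 1 library against an input, per the peak names, so nothing was pooled. The deposited score of each peak (column 9) is of unknown scale and served only to rank or filter peaks. Ranks and medians were taken within each list. The cutoff of 20 was the same in all lists, although their median scores differ.

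Overlapping peaks were merged and 19 mitochondrial peaks left out (Python 3.11.15, numpy 2.4.6). For each list the length in peaks in the window, the number and width of peaks, and the window's share of the list's own length (ppm) were computed. Even spread takes the genome as 2642 Mb, the sum of last peak ends. H3K9me3 was compared by exact two-sided permutation tests of means, with Benjamini-Hochberg adjustment over 5 tests, which for 6 against 3 lists cannot go below p = 0.0119. Counting of bins was tested on simulated lists.

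The window, its genes and the alternatives were chosen with earlier results of these data known. Both genes were named by that choice. The tiles called most alike are the 5 with the highest correlation, and the other E10.5 regions were to be the 3 next longest, to which the fourth of equal length was added. The annotation at hand is of GRCm38, so peaks at other cell-cycle genes were not analysed here. It gave gene order and promoters only, with both genes matched by symbol. The 13 inputs were not used here. Depth is unknown, so no interval is given for a single list.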

Additional observations from a re-analysis of the deposited data

Results flagged for a closer look

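Among the 6 E13.5 lists, 11 measures of the window and its surroundings were examined for a list far from the others, and 3 stood out. The rule is meant to mark about 1 in 20 by chance. That rate does not hold for measures that overlap or are 0 in most lists, so the count is not set against it. Female replicate 3 was the only E13.5 list with H3K27me3 in the second 30 kb of the window, at 0.959 kb against 0 kb in the other 5. Male replicate 2, the list of 359 peaks, held 1.42 kb of H3K27me3 in the 1 Mb around the window, below 6.86 to 9.98 kb in the other 5. Female replicate 2 had 22.7 ppm of its H3K9me3 length in the window, from a single peak of 277 bp, against 3.33 ppm in male replicate 1 and 0 ppm in the other 4.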

How the results depend on the processing

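Of 141 alternative values 124 kept their direction and side of the threshold or moved less than the spread between lists. Depth is unknown, so a gap in a short list may be a limit of calling. For H3K27me3 in the window, the E13.5 minus E10.5 difference of -23.02 kb was -29.5 to -16.9 kb with 1 list left out, -14.8 kb in the second 30 kb alone and -1.85 kb with the 359 top-scoring peaks of each list, where the lowest E10.5 list held 0 kb. In ppm it was -2034. Female minus E10.5 was -1.73 kb with 359 peaks and -1747 ppm, and male minus E10.5 was -1.97 kb and -2322 ppm. With 359 peaks the difference in the number of peaks was 0.333, against -3.67 with all. For H3K9me3 in 1 Mb, a score of at least 20 turned E13.5 minus E10.5 to -2.83 kb (exact permutation p = 0.333) and male minus E10.5 to -2.45 kb (exact permutation p = 1). Female minus E10.5 turned to 0.118 kb with the 1107 top-scoring peaks and ran from -5.36 to 1.97 kb with 1 list left out, the last without E10.5 replicate 2. The cause of these changes was not tested. The 133 bins that separate the stages became 273 with a score of at least 20, 84 with peaks at or above the median score, 3 with the 359 top-scoring peaks, 37 with a minimum of 50% of the bin, and 133 to 2755 with 1 list left out, most without E10.5 replicate 2. Deviations of same-numbered lists had a correlation over 0.1 in 4 of 9 pairs for H3K27me3 and 1 of 9 for H3K9me3. The median correlation was 0.077 in same-numbered and 0.013 in other pairs for H3K27me3. For H3K9me3 it was 0.023 and -0.031. With so few pairs this does not settle whether the numbers pair the lists. A replicate block leaves these mean differences as they are and allows no p below 0.25 here, so it could change no call. With it the H3K27me3 difference is -23.02 kb, and for H3K9me3 exact sign-flip permutation p-values were 0.5 for the window (0.090 kb) and 0.5, 1, 0.25 and 0.25 in 1 Mb for E13.5 minus E10.5 (7.16 kb), female minus E10.5 (-2.87 kb), male minus E10.5 (17.2 kb) and male minus female (20.04 kb). For H3K27me3 of the sexes it was 0.25 (-1.87 kb).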
